A study of Danio rerio with 35 samples.

Results

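Zebrafish embryos that had lost Nanog and SoxB1 together were compared with embryos that had lost either factor alone and with wild type, at 4 hours post fertilization (hpf). The measure was the interaction, Nanog+SoxB1 MO minus Nanog MO minus SoxB1 MO plus WT, taken per gene on log2(RPKM + 0.5). RPKM is a read density, corrected for gene length and for the size of the library. An interaction of 0 means that the double loss fell as far as the sum of the single losses on that scale, and a negative value means that it fell further. The exon table held 27997 entries, of which 27151 were single genes. Of these, 9440 genes had at least 5 RPKM in WT at 4 hpf and were sorted into classes by fixed folds: lost means at least 4-fold below WT and kept means less than 2-fold below WT.

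The 4 libraries at 4 hpf were rRNA-depleted total RNA from pools of 5 whole TUAB embryos, among 35 libraries in all. The Nanog+SoxB1 MO embryos had received, at the 1-cell stage, antisense morpholino oligonucleotides (MO) against Nanog and the SoxB1 factors. The Nanog MO embryos received the first reagent and the SoxB1 MO embryos the second. The WT embryos were TUAB, labelled with no treatment, so injection itself and loss of the factors cannot be told apart here. Further TUAB libraries were Nanog+SoxB1 MO at 6 hpf (2 libraries), Nanog MO at 6 hpf (1 library), alpha-amanitin at 4 hpf (1 library, RNA polymerase II blocked), WT at 6 hpf (3 libraries) and WT at 2 hpf (1 library). The same injections were also made in MZpou5f1 embryos, homozygous for the hi349Tg allele and without maternal and zygotic pou5f1 (annotated as pou5f3). That background gave 1 library each of Nanog+SoxB1 MO, Nanog MO, SoxB1 MO and uninjected embryos at 4 hpf. The labels call replicates separate samples and say nothing of separate clutches, so the p-values rest on a spread that may be technical.

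The zygotic genome of the zebrafish is silent during the first cleavages and is switched on at the midblastula transition, while stored maternal messages are cleared. Nanog, SoxB1 proteins and Pou5f3 are maternally supplied transcription factors that bind many of the earliest zygotic genes and are known for their part in that activation. SoxB1 factors (sox1a, sox1b, sox2, sox3, sox19a and sox19b in fish) belong to one HMG-box group, of which sox19b is the main maternal member. Nanog is a homeodomain protein that also acts through the mxtx genes of the yolk syncytial layer. The mir-430 cluster, an early zygotic target, encodes a microRNA that helps clear maternal messages.

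Relative depth, with WT at 4 hpf as the unit, was 0.378 in Nanog+SoxB1 MO, 0.497 in Nanog MO and 0.442 in SoxB1 MO. The absolute depth is unknown, since RPKM was deposited without counts. Footprints of translating ribosomes at 2 hpf check the reagents at the level of translation, in the double injection only. No footprints were read for Nanog MO or SoxB1 MO alone. The strength of each single loss, on which every kept call rests, was therefore not checked. The nanog message carried 48.9 RPM (reads scaled to library size; 37 reads) in Nanog+SoxB1 MO, against 2415 RPM (1276 reads) in WT. The maternal SoxB1 gene sox19b carried 71.3 RPM (54 reads) in Nanog+SoxB1 MO, against 2021 RPM (1068 reads) in WT. Footprints on pou5f3, which neither reagent targets, were at 2922 RPM in Nanog+SoxB1 MO and 2074 RPM in WT. Message levels need not fall under a reagent that blocks translation, and nanog mRNA was at 414 RPKM in Nanog+SoxB1 MO, 463 RPKM in Nanog MO, 525 RPKM in SoxB1 MO and 598 RPKM in WT. Each 4 hpf condition had 1 library, so the spread in the tests came from the replicated 6 hpf groups, and the 4 hpf libraries were assumed to vary like them.

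Loss of both factors removed more transcripts than either loss alone. In Nanog+SoxB1 MO 197 of 9440 genes were lost (2.09%), against 152 in Nanog MO (1.61%) and 21 in SoxB1 MO (0.222%). Nanog loss alone accounted for most of them: 145 of the 197 (73.6%) were also lost in Nanog MO, 33 were 2-fold to 4-fold lower there and 19 were kept. Only 17 of the 197 were also lost in SoxB1 MO, and 128 were kept there. Most lost genes had little maternal message: 171 of the 197 had under 1 RPKM in WT at 2 hpf, against 2.55% of all 9440 genes. The embryos were pooled whole, so fewer cells of a type and less RNA per cell cannot be told apart.

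By the limma test across 15944 genes, 230 were lower (1.44%) and 15 higher (0.0941%) in Nanog+SoxB1 MO than in WT. Nanog MO had 130 lower (0.815%) and 10 higher genes (0.0627%), and SoxB1 MO 10 lower (0.0627%) and 0 higher genes, with 431 genes at an unadjusted p under 0.05 in SoxB1 MO. Against Nanog MO, Nanog+SoxB1 MO had 27 lower genes (0.169%) and 1 higher (0.00627%). Against SoxB1 MO it had 151 lower (0.947%) and 9 higher (0.0564%). Of these 27, 18 were in the more-than-additive class described below and 25 had under 1 RPKM in WT at 2 hpf. The more-than-additive class was chosen on the same Nanog+SoxB1 MO and Nanog MO libraries, so its overlap with these calls is largely fixed by that choice. The comparisons share libraries and are given side by side. The calls of the small sets rested on the whole set of 6 hpf replicates: without WT replicate 2, or without either Nanog+SoxB1 MO replicate, 0 of the 27 calls against Nanog MO were left. For SoxB1 MO against WT, 1 lower gene was left without WT replicate 1, 2 or 3, and 0 without Nanog+SoxB1 MO replicate 1 or 2. For Nanog MO against WT, 83 lower genes were left without Nanog+SoxB1 MO replicate 2.

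No gene passed the test of the interaction itself. The limma fit gave 0 lower and 0 higher genes (0% each) at an adjusted p under 0.05, with 287 genes at an unadjusted p under 0.05 and a lowest adjusted p of 0.111. The median standard error of an interaction was 0.546 on the log2 scale. With the filter on low values raised to 5 RPKM, 5 were lower (klf2b, apoeb, asb11, slc25a55a and sox19a) and 2 higher (polr3gla and osgn1), with adjusted p from 0.0432 to 0.0465. With a pseudocount of 0.1 only asb11 was lower (adjusted p = 0.0187). The classes below are therefore descriptions of 1 library per condition, with the test of each step beside them.

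**Figure D1:**
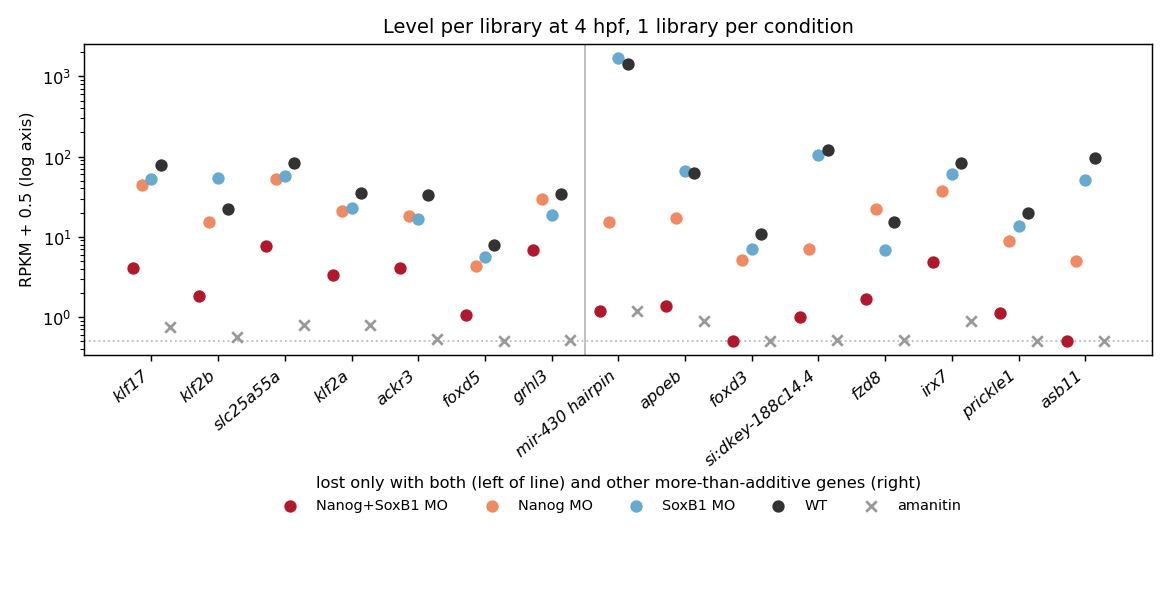
Level of the named genes lost only with both factors and of the other named more-than-additive genes, as RPKM + 0.5 on a log axis, in each of the 4 conditions and in amanitin at 4 hpf, 1 point per library. Nanog+SoxB1 MO lies below Nanog MO, SoxB1 MO and WT for every gene drawn, and for the mir-430 hairpin it lies at the amanitin level.

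Genes lost only with both factors were few. In 8 of the 9440 genes (0.0847%), each single loss was kept, less than 2-fold below WT, while the double loss was at least 4-fold below WT. Of these, 7 had a symbol, and 3 of them were Krüppel-like zinc finger genes. The class median lay 3.22 below WT on the log2 scale in Nanog+SoxB1 MO, 0.78 below in Nanog MO and 0.55 below in SoxB1 MO. Their level was under 1 RPKM in WT at 2 hpf in 7 of the 8, and amanitin left from 0 to 0.302 RPKM of the 7 with a symbol.

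The gene klf17 (ENSDARG00000038792), a Krüppel-like factor of the enveloping layer and of the later hatching gland, had 3.60 RPKM in Nanog+SoxB1 MO, 44.04 RPKM in Nanog MO, 52.2 RPKM in SoxB1 MO and 77.6 RPKM in WT. It lay 3.44 ± 0.40 (SE) lower on the log2 scale in Nanog+SoxB1 MO than in Nanog MO (adjusted p = 0.0396). Its paralogue klf2b (ENSDARG00000040432) had 1.31 RPKM in Nanog+SoxB1 MO, 14.7 RPKM in Nanog MO, 53.2 RPKM in SoxB1 MO and 21.9 RPKM in WT. The interaction of klf2b, -4.32 ± 0.49 (SE), was the most negative of the 9440 genes, and it holds a SoxB1 MO value above WT. In klf2a (ENSDARG00000042667), another family member, the levels were 2.88 RPKM in Nanog+SoxB1 MO, 20.6 RPKM in Nanog MO, 22.3 RPKM in SoxB1 MO and 35.0 RPKM in WT. The step of klf2a below Nanog MO had an adjusted p of 0.301.

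The other 4 with a symbol came from different families. A mitochondrial solute carrier gene, slc25a55a (ENSDARG00000020893), had 7.07 RPKM in Nanog+SoxB1 MO, 51.8 RPKM in Nanog MO, 57.1 RPKM in SoxB1 MO and 82.4 RPKM in WT. It fell below Nanog MO by 2.79 ± 0.19 (SE; adjusted p = 0.00505) and its interaction was -2.26 ± 0.27 (adjusted p = 0.1201). The grainyhead-like gene grhl3 (ENSDARG00000078552), an epidermal transcription factor, had 6.36 RPKM in Nanog+SoxB1 MO, 29.2 RPKM in Nanog MO, 17.96 RPKM in SoxB1 MO and 33.8 RPKM in WT. In grhl3, the step below Nanog MO reached an adjusted p of 0.0522. The chemokine scavenger receptor gene ackr3 (ENSDARG00000058179) had 3.55 RPKM in Nanog+SoxB1 MO, 17.8 RPKM in Nanog MO, 16.4 RPKM in SoxB1 MO and 33.1 RPKM in WT. The forkhead gene foxd5 (ENSDARG00000042485) was the lowest in WT, with 0.564 RPKM in Nanog+SoxB1 MO, 3.86 RPKM in Nanog MO, 5.14 RPKM in SoxB1 MO and 7.31 RPKM in WT. The adjusted p of the step below Nanog MO was 0.0498 for ackr3 and 0.156 for foxd5.

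More-than-additive genes, which were lost in Nanog+SoxB1 MO with an interaction of -1 or lower, numbered 42 of 9440 (0.445%), and 29 had a symbol. All 8 of the genes above are among them. Nanog MO had lost 19 of the 42, left 12 at 2-fold to 4-fold below WT and kept 11, whereas SoxB1 MO had lost 0, left 8 at 2-fold to 4-fold below and kept 34. In 10 of the 42 SoxB1 MO lay above WT, which by itself makes the interaction more negative. The double loss lay at least 2-fold below the lower single loss in 37 of the 42 (0.847% of all 9440 genes), which the rule largely fixes and which is given as a description. A pair of entries counts foxd3 (ENSDARG00000021032) a second time: ENSDARG00000095311 differed from it by at most 0.0313 on the log2 scale over 31 libraries.

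The largest levels belonged to the mir-430 hairpin, at 0.681 RPKM in Nanog+SoxB1 MO, 15.0 RPKM in Nanog MO, 1688 RPKM in SoxB1 MO and 1406 RPKM in WT. Nanog MO thus left 1.06% of the WT level, and Nanog+SoxB1 MO left 0.0484%, as low as amanitin with 0.694 RPKM. The step from Nanog MO had an adjusted p of 0.0728, and the copies of the cluster share reads. The apolipoprotein E gene apoeb (ENSDARG00000040295) had 0.878 RPKM in Nanog+SoxB1 MO, 16.6 RPKM in Nanog MO, 66.5 RPKM in SoxB1 MO and 62.3 RPKM in WT. It fell below Nanog MO by 3.63 ± 0.30 (SE; adjusted p = 0.0095). SoxB1 loss alone left apoeb and the mir-430 hairpin at or above WT, so their further fall appears where Nanog was also lost.

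Several named genes of this class encode transcription factors. The Iroquois gene irx7 (ENSDARG00000002601) had 4.38 RPKM in Nanog+SoxB1 MO, 36.3 RPKM in Nanog MO, 59.8 RPKM in SoxB1 MO and 82.0 RPKM in WT, and fell below Nanog MO (adjusted p = 0.0095). The zygotic SoxB1 gene sox19a (ENSDARG00000010770) had 4.71 RPKM in Nanog+SoxB1 MO, 24.5 RPKM in Nanog MO, 44.7 RPKM in SoxB1 MO and 52.2 RPKM in WT. It fell by 2.26 ± 0.16 below Nanog MO (SE; adjusted p = 0.00535), with an interaction of -2.04 ± 0.23 (adjusted p = 0.111). The forkhead gene foxd3, a neural crest and stem cell factor, was listed at 0 in Nanog+SoxB1 MO, against 4.66 RPKM in Nanog MO, 6.49 RPKM in SoxB1 MO and 10.3 RPKM in WT. The zinc finger gene zic2 (ENSDARG00000037178) had 0.626 RPKM in Nanog+SoxB1 MO, 5.02 RPKM in Nanog MO, 20.3 RPKM in SoxB1 MO and 43.7 RPKM in WT. Here the order of the levels was Nanog+SoxB1 MO, Nanog MO, SoxB1 MO and WT in each of the 4 genes.

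Other named genes of the class act in signalling. The Wnt receptor gene fzd8 (ENSDARG00000045444) was at 1.17 RPKM in Nanog+SoxB1 MO, 21.6 RPKM in Nanog MO, 6.26 RPKM in SoxB1 MO and 14.7 RPKM in WT, and its Nanog MO value was the one above WT among the 42 genes. The planar polarity gene prickle1 (ENSDARG00000045694) had 0.614 RPKM in Nanog+SoxB1 MO, 8.29 RPKM in Nanog MO, 13.0 RPKM in SoxB1 MO and 19.0 RPKM in WT. The ERK phosphatase gene dusp6 (ENSDARG00000070914) had 0.217 RPKM in Nanog+SoxB1 MO, 4.03 RPKM in Nanog MO, 9.22 RPKM in SoxB1 MO and 20.8 RPKM in WT. Of these, fzd8 (adjusted p = 0.0147) and prickle1 (adjusted p = 0.0387) passed the test against Nanog MO, and dusp6 (adjusted p = 0.0853) did not. The SOCS-box gene asb11 (ENSDARG00000056561) was listed at 0 in Nanog+SoxB1 MO, with 4.52 RPKM in Nanog MO, 50.7 RPKM in SoxB1 MO and 95.2 RPKM in WT. The step below Nanog MO was 3.33 ± 0.19 for asb11 (SE; adjusted p = 0.00505). Among genes with a symbol, shisa2a lay just inside the limit of the class with an interaction of -1.06, and rassf7b just outside with -0.999.

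Additivity depends on the scale. When it was judged on linear RPKM instead, as a shortfall of at least 25% of the WT level, 19 lost genes were more than additive and 10 of the 42 were among them, including apoeb, fzd8 and klf2b. The linear interaction of the mir-430 hairpin was -21.0% of WT and that of klf17 -19.4%. For asb11 it was positive, since Nanog MO had already removed all but 4.74% of its RNA. The log2 interaction thus counts a further fall from a low level as much as one from a high level.

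**Figure D2:**
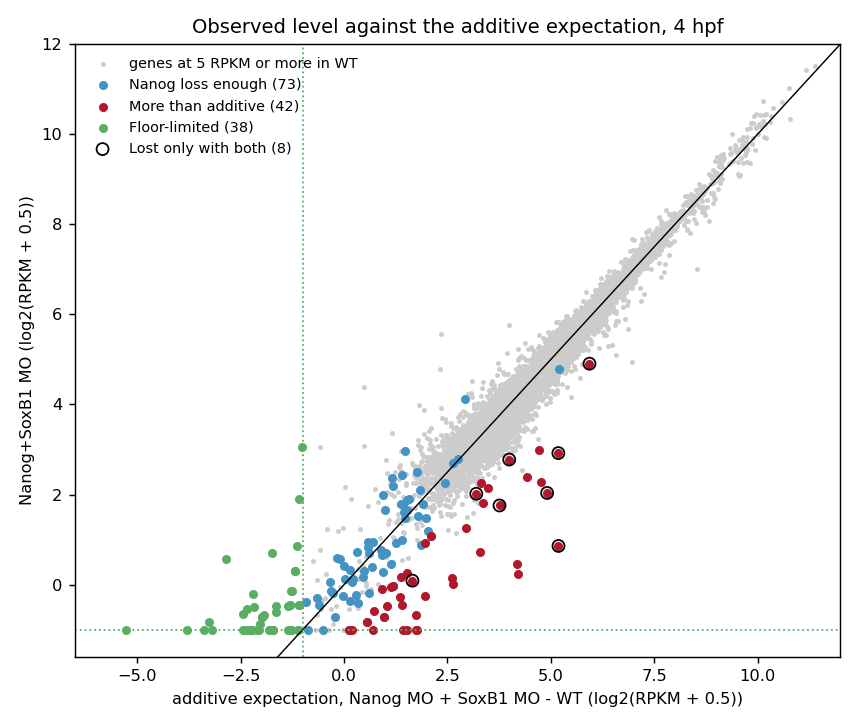
Level in Nanog+SoxB1 MO against the additive expectation from Nanog MO, SoxB1 MO and WT, both as log2(RPKM + 0.5), for 9440 genes with at least 5 RPKM in WT. The diagonal marks an interaction of 0 and the dotted lines mark 0 RPKM. The 42 more-than-additive genes lie below the diagonal and the 38 floor-limited genes left of the vertical dotted line, where no library can follow the diagonal.

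Loss of Nanog was enough for the largest class. In 73 genes (0.773%) Nanog MO was lost, SoxB1 MO was kept and Nanog+SoxB1 MO stayed within 2-fold of Nanog MO. WT levels in the class ran from 5.08 to 742 RPKM. These values chose the class, so no test is read from them. Of the 73, 5 also had an interaction of -1 or lower and are counted in the more-than-additive class as well. SoxB1 MO lay above WT in 25 of the 73. The double loss lay below Nanog MO in 41 and above it in 30, and 60 of the 73 interactions lay between -1 and 1.

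The highest of these was ENSDARG00000040141, with 16.8 RPKM in Nanog+SoxB1 MO, 8.25 RPKM in Nanog MO, 642 RPKM in SoxB1 MO and 742 RPKM in WT. How reads were divided between it and any close copies is not given in the sources used here, so its level is uncertain. The Hairy-related gene her5 (ENSDARG00000008796) had 0.806 RPKM in Nanog+SoxB1 MO, 1.35 RPKM in Nanog MO, 111 RPKM in SoxB1 MO and 128 RPKM in WT. The bloody fingers gene blf (ENSDARG00000043126), a zinc finger factor, had 3.17 RPKM in Nanog+SoxB1 MO, 2.90 RPKM in Nanog MO, 160 RPKM in SoxB1 MO and 189 RPKM in WT. For both genes, Nanog+SoxB1 MO and Nanog MO lay close together and far below SoxB1 MO and WT. The actin regulator gene marcksl1b (ENSDARG00000035715) kept more, with 27.0 RPKM in Nanog+SoxB1 MO, 48.6 RPKM in Nanog MO, 177 RPKM in SoxB1 MO and 238 RPKM in WT, and its interaction was -0.41 ± 0.24 (SE). The class also held the dorsal genes chrd and gsc, the yolk syncytial genes mxtx1 and mxtx2, the Nodal inhibitor lft2, bmp2, 4 entries of the drl family and sox3. In sox3, itself a SoxB1 gene, the levels were 1.47 RPKM in Nanog+SoxB1 MO, 0.933 RPKM in Nanog MO, 80.6 RPKM in SoxB1 MO and 43.3 RPKM in WT.

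Loss of SoxB1 was enough for 1 gene (0.0106%), cebpb (ENSDARG00000042725), which encodes the C/EBP beta bZIP factor. It had 1.57 RPKM in Nanog+SoxB1 MO, 9.10 RPKM in Nanog MO, 3.05 RPKM in SoxB1 MO and 14.4 RPKM in WT, and it fell below WT by 2.07 ± 0.20 in SoxB1 MO (SE; adjusted p = 0.0368). The additive expectation for cebpb was 1.79 RPKM, next to the observed 1.57 RPKM.

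A total of 13 genes (0.138%) were lost, at least 4-fold below WT, in Nanog MO and also in SoxB1 MO. This rule does not ask that the double loss stop there. By the limma test, Nanog+SoxB1 MO was below both single losses in fgfr4. It was also below SoxB1 MO in stm (adjusted p = 0.0149) and below Nanog MO in vgll4l (adjusted p = 0.0498). The Hippo cofactor gene vgll4l (ENSDARG00000068409) was listed at 0 in Nanog+SoxB1 MO, with 3.53 RPKM in Nanog MO, 0.102 RPKM in SoxB1 MO and 92.9 RPKM in WT. It fell by 7.28 ± 0.38 in SoxB1 MO (SE; adjusted p = 0.0033). The RNA polymerase III subunit gene polr3gla (ENSDARG00000012044) had 0.984 RPKM in Nanog+SoxB1 MO, 0.996 RPKM in Nanog MO, 0.934 RPKM in SoxB1 MO and 14.9 RPKM in WT. The starmaker gene stm (ENSDARG00000035694), which encodes an otolith matrix protein, had 0.065 RPKM in Nanog+SoxB1 MO, 0.197 RPKM in Nanog MO, 1.83 RPKM in SoxB1 MO and 15.2 RPKM in WT. For polr3gla the 3 injected conditions were level with each other, and for stm the SoxB1 MO value lay between the others and WT.

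An additive expectation above the floor, with both single losses strong, was seen in the FGF receptor gene fgfr4 (ENSDARG00000069105). Its levels were 0.840 RPKM in Nanog+SoxB1 MO, 6.09 RPKM in Nanog MO, 6.89 RPKM in SoxB1 MO and 34.8 RPKM in WT. The expectation was 0.879 RPKM and the interaction -0.04 ± 0.31 (SE). Each loss took fgfr4 to about the same level, and the double loss fell below Nanog MO by 2.30 ± 0.22 (SE; adjusted p = 0.0148). Under a pseudocount of 1 that interaction turned positive, at 0.24. A fit of 8 libraries at 4 hpf, which adds the MZpou5f1 libraries and shares 1 interaction between the backgrounds, gave 1.04. In MZpou5f1 alone the interaction of fgfr4 was 2.12, with an expectation under the floor. The other 12 genes of the class had positive interactions, and 11 of the 13 lay under the floor. Besides fgfr4, only zgc:64022 had an expectation above the floor, at 0.895 RPKM. Its levels were 20.3 RPKM in Nanog+SoxB1 MO, 5.40 RPKM in Nanog MO, 19.9 RPKM in SoxB1 MO and 85.8 RPKM in WT. The interaction of zgc:64022 was 3.90 ± 0.96 (SE), so a positive value was not confined to genes under the floor.

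**Figure D3:**
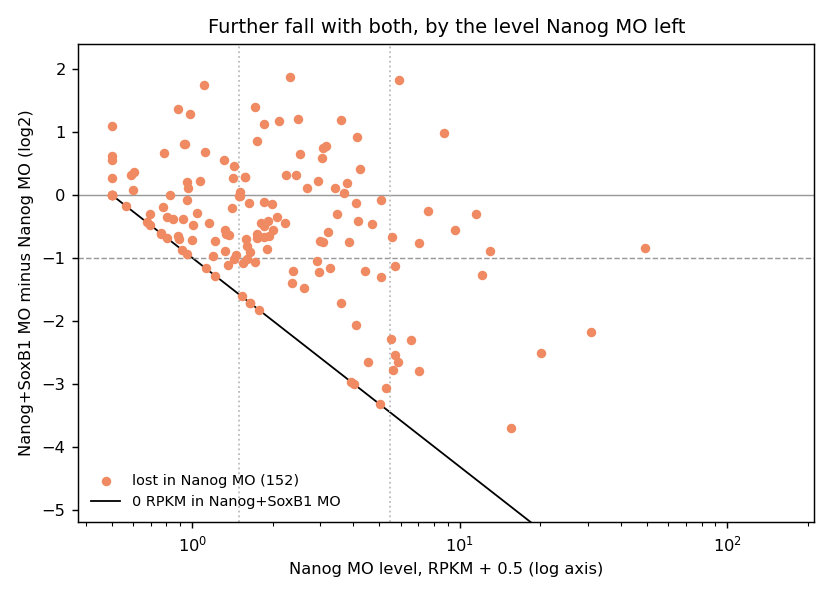
Difference between Nanog+SoxB1 MO and Nanog MO on the log2 scale against the Nanog MO level, as RPKM + 0.5 on a log axis, for the 152 genes lost in Nanog MO. The black line marks 0 RPKM in Nanog+SoxB1 MO, so the room for a further fall closes to the left, and the dotted lines mark 1 and 5 RPKM.

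At low RPKM the floor of the measure set the sign of the interaction. In 38 genes (0.403%) the additive expectation was at or under log2(0.5), a level that corresponds to 0 RPKM. All 38 interactions were positive, as that choice largely fixes, with a median of 1.26. Of the 38, 17 were listed at 0 in Nanog+SoxB1 MO and 32 were under 0.5 RPKM. With a pseudocount of 0.1, 34 of the 38 interactions were positive. For vgll4l the interaction was 4.27 ± 0.54 (SE; adjusted p = 0.152), with nothing left to lose in SoxB1 MO, and b3galt10.1 was listed at 0 in both Nanog+SoxB1 MO and SoxB1 MO. A positive interaction cannot be read as a smaller effect in such genes.

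A gene above the floor in the double loss although its expectation was below it is another matter. The gene osgn1 (ENSDARG00000052279) had 7.77 RPKM in Nanog+SoxB1 MO, 3.11 RPKM in Nanog MO, 2.11 RPKM in SoxB1 MO and 18.7 RPKM in WT. It was the highest of the 38 in Nanog+SoxB1 MO, above both single losses. Its interaction was 4.07 ± 0.40 (SE; adjusted p = 0.111). The floor also bore on the genes lost in Nanog MO. Of the 152, 60 had under 1 RPKM left in Nanog MO, and Nanog+SoxB1 MO lay at least 2-fold lower in 4 of them. That count was 22 of the 72 genes with 1 to 5 RPKM left, and 11 of the 20 with 5 RPKM or more. The median interaction in these 3 groups was 0.74, 0.10 and -0.26. Both measures contain the Nanog MO value that formed the groups, so these counts are a description of the floor and no trend is read from them. Over all 152, Nanog+SoxB1 MO was also lost in 145, at least 2-fold below Nanog MO in 37, within 2-fold in 104 and at least 2-fold above in 11.

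Amanitin gives the level without RNA polymerase II. Nanog+SoxB1 MO was within 2-fold of amanitin in 108 of the 197 genes lost with both, and Nanog MO in 59 of the same 197. Among all 9440 genes the counts were 7479 in Nanog+SoxB1 MO (79.2%) and 7788 in Nanog MO, most of them maternal messages. Of the 8 genes lost only with both, 0 were within 2-fold of amanitin in Nanog+SoxB1 MO, and of the 42 more-than-additive genes 22 were. A gene near 0 RPKM in both libraries counts as within 2-fold on this scale. These counts therefore partly restate which genes lay near the floor.

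Some genes were higher in the double loss than the single losses would add up to: 93 of 9440 had an interaction of 1 or more (0.985%). Of these, 29 were floor-limited and 64 were not. An interaction of -1 or lower, with no rule on loss, was seen in 80 of the 9440 (0.847%). Large interactions were thus not mainly negative. With an expectation of at least 1 RPKM, the largest positive interaction belonged to aplnrb (ENSDARG00000036670), the apelin receptor gene that guides mesendodermal cell movement. It had 47.0 RPKM in Nanog+SoxB1 MO, 12.9 RPKM in Nanog MO, 10.7 RPKM in SoxB1 MO and 29.4 RPKM in WT. Its interaction was 3.23 ± 0.46 (SE; adjusted p = 0.262), and it was higher in Nanog+SoxB1 MO than in SoxB1 MO (adjusted p = 0.0374). Its ligand gene apela had another pattern, being listed at 0 in Nanog+SoxB1 MO, with 1.14 RPKM in Nanog MO, 13.9 RPKM in SoxB1 MO and 37.2 RPKM in WT. The interferon-induced gene isg15 had 54.2 RPKM in Nanog+SoxB1 MO, 11.2 RPKM in Nanog MO, 12.3 RPKM in SoxB1 MO and 9.02 RPKM in WT, and its WT level at 6 hpf ran from 6.81 to 63.7 RPKM between libraries, so its interaction of 1.79 ± 1.69 (SE) is within the spread.

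A pair of stress and damage response genes, gadd45a and sesn3, were higher in Nanog+SoxB1 MO than in WT, and cdkn1a did not pass the test. The DNA damage gene gadd45a had 47.2 RPKM in Nanog+SoxB1 MO, 10.4 RPKM in Nanog MO, 3.69 RPKM in SoxB1 MO and 3.00 RPKM in WT (adjusted p = 0.0128 for Nanog+SoxB1 MO against WT). The cell cycle inhibitor gene cdkn1a had 32.3 RPKM in Nanog+SoxB1 MO, 14.8 RPKM in Nanog MO, 8.36 RPKM in SoxB1 MO and 4.76 RPKM in WT (adjusted p = 0.233). Nutrient sensor gene sesn3, at 5.88 RPKM in Nanog+SoxB1 MO against 0.840 RPKM in Nanog MO, was the 1 gene called higher against Nanog MO (adjusted p = 0.0396). The part of these genes in the losses described above was not tested.

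Lists of developmental genes are given by their counts, beside the share of all 15944 genes called. Of 17 tested genes of the enveloping layer and epidermis, 6 were lower in Nanog+SoxB1 MO than in WT (1.44% of all genes), 2 in Nanog MO (0.815%) and 0 in SoxB1 MO (0.0627%), and 3 were lower in Nanog+SoxB1 MO than in Nanog MO (0.169%). The 3 were klf17, klf2b and the claudin gene cldne, which had 3.02 RPKM in Nanog+SoxB1 MO, 10.5 RPKM in Nanog MO, 4.59 RPKM in SoxB1 MO and 8.49 RPKM in WT. The keratin gene krt18a.1 was additive, with 9.14 RPKM in Nanog+SoxB1 MO, 17.3 RPKM in Nanog MO, 29.1 RPKM in SoxB1 MO and 53.8 RPKM in WT and an interaction of -0.01 ± 0.24 (SE). The summed level of 8 enveloping layer markers was 23.3 RPKM in Nanog+SoxB1 MO, 104 RPKM in Nanog MO, 110 RPKM in SoxB1 MO and 189 RPKM in WT, with 6 of the 8 at 1 RPKM or more in WT. That sum holds klf17 and grhl3, which the class rule had chosen and which make up most of it in WT. Over the 18 entries of the whole list the sum was 414 RPKM in Nanog+SoxB1 MO, 457 RPKM in Nanog MO, 520 RPKM in SoxB1 MO and 527 RPKM in WT, most of it from the adhesion gene epcam, at 377 RPKM in Nanog+SoxB1 MO, 321 RPKM in Nanog MO, 339 RPKM in SoxB1 MO and 291 RPKM in WT. The keratins krt5 and krt17 were under 0.5 RPKM in all 4 libraries.

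Of 11 yolk syncytial entries tested, 2 were lower in Nanog+SoxB1 MO (1.44% of all genes) and 2 in Nanog MO (0.815% of all genes), mxtx1 and mxtx2, and the other 9 were not called. The gene mxtx2 had 1.797 RPKM in Nanog+SoxB1 MO, 3.35 RPKM in Nanog MO, 45.6 RPKM in SoxB1 MO and 42.8 RPKM in WT. Of 12 dorsal organizer and Nodal genes, 6 were lower in Nanog+SoxB1 MO and 5 in Nanog MO, chordin (chrd) and goosecoid (gsc) among them, while lft1, ndr1, dharma, dkk1b and lhx1a were among those that did not pass. The Not homeobox gene noto was intermediate, at 7.08 RPKM in Nanog+SoxB1 MO, 14.5 RPKM in Nanog MO, 20.7 RPKM in SoxB1 MO and 36.6 RPKM in WT. The summed level of 4 yolk syncytial markers was 1.797 RPKM in Nanog+SoxB1 MO, 3.66 RPKM in Nanog MO, 52.1 RPKM in SoxB1 MO and 49.4 RPKM in WT, with 2 of the 4 at 1 RPKM or more in WT. The part of a change in cell number in these results was not tested.

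The remaining lists are read against the same shares of all genes, 1.44% lower in Nanog+SoxB1 MO, 0.815% in Nanog MO and 0.169% below Nanog MO. Of 11 neuroectoderm genes, 6 were lower in Nanog+SoxB1 MO, 4 in Nanog MO and 2 below Nanog MO (sox19a and zic2). Of 14 mesoderm, endoderm and FGF genes, 4 were lower in Nanog+SoxB1 MO and 3 in Nanog MO, with tbx16 at 0.130 RPKM in Nanog+SoxB1 MO, 0.099 RPKM in Nanog MO, 7.08 RPKM in SoxB1 MO and 16.8 RPKM in WT. Of 12 ventral BMP and Wnt genes, 2 were lower in Nanog+SoxB1 MO, bmp7a and the BMP target id1, and 1 in Nanog MO, id1. In id1 the levels were 6.31 RPKM in Nanog+SoxB1 MO, 30.5 RPKM in Nanog MO, 52.8 RPKM in SoxB1 MO and 154 RPKM in WT, and it was lower in Nanog+SoxB1 MO than in Nanog MO (adjusted p = 0.0111). Of 8 cell migration genes, 4 were lower in Nanog+SoxB1 MO and 3 in Nanog MO, with both cxcr4 entries in each. Of 14 oocyte-derived messages, 0 were called in any comparison with WT (limma; the list's median difference from WT was 0.54 in Nanog+SoxB1 MO, 0.30 in Nanog MO and 0.09 in SoxB1 MO).

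**Figure D4:**
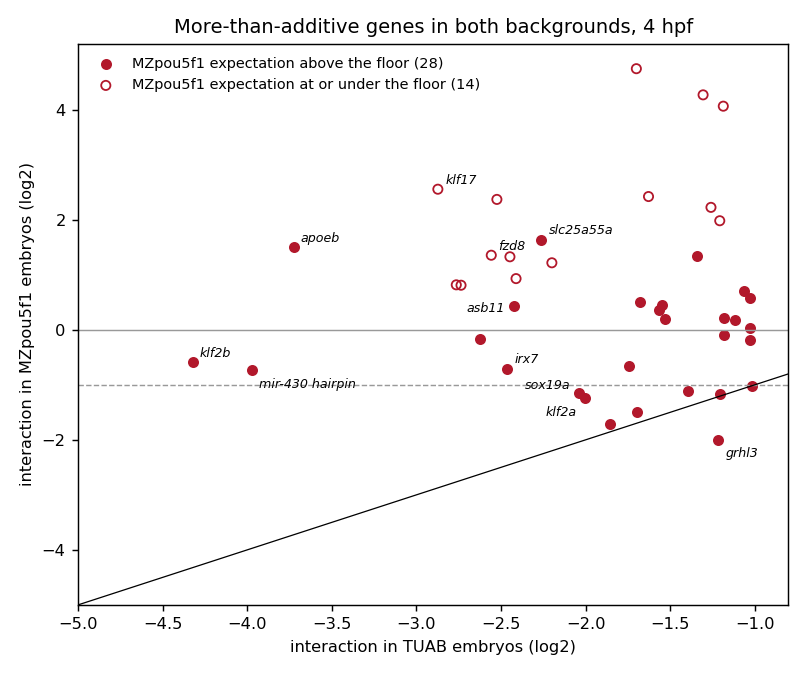
Interaction of the 42 more-than-additive genes in TUAB embryos (x axis) and in MZpou5f1 embryos (y axis), both on the log2 scale at 4 hpf, 1 value per gene from 4 libraries each. The black line marks equal values and the dashed line -1. Genes were chosen for the x value, so points above the line are largely fixed by that choice, and 14 open points had an MZpou5f1 expectation at or under the floor.

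The libraries labelled MZpou5f1 gave the same measure and had no part in the choice of genes. The uninjected MZpou5f1 library held 28.0 RPKM of pou5f3, against 157 RPKM in WT, and the injected ones from 0.088 to 1.87 RPKM, so the message goes against the label of the uninjected library, called below the library labelled MZpou5f1; every interaction in that background rests on it. Of the 42 genes, 8 had an MZpou5f1 interaction of -1 or lower, against 0.307% of the 9440 genes. It was also that low in 9 of the 73 genes with Nanog loss enough. Of the 197 genes lost in Nanog+SoxB1 MO, which include the 42, 15 were that low. A negative value was seen in 15 of the 42 and in 5673 of the 9440 genes, and the median of the 42 was 0.44. A negative value was out of reach for 14 of the 42, whose expectation was at or under the floor there. Among the genes lost only with both, klf2a (-1.24) and grhl3 (-2.01) had an interaction of -1 or lower there too, and the other 6 did not. In grhl3 the levels were 2.62 RPKM in MZpou5f1 Nanog+SoxB1 MO, 21.2 RPKM in MZpou5f1 Nanog MO, 17.6 RPKM in MZpou5f1 SoxB1 MO and 30.9 RPKM in the library labelled MZpou5f1. For klf17 the levels were 0.406 RPKM in MZpou5f1 Nanog+SoxB1 MO, 0.263 RPKM in MZpou5f1 Nanog MO, 0.410 RPKM in MZpou5f1 SoxB1 MO and 4.01 RPKM in the library labelled MZpou5f1, with all 3 injected libraries level. In sox19a the interaction was -1.15 in MZpou5f1 and -2.04 in TUAB. The difference between the backgrounds passed the test for 0 of 16440 genes in either direction (0%; lowest adjusted p = 0.0768, with 472 genes at an unadjusted p under 0.05).

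**Figure D5:**
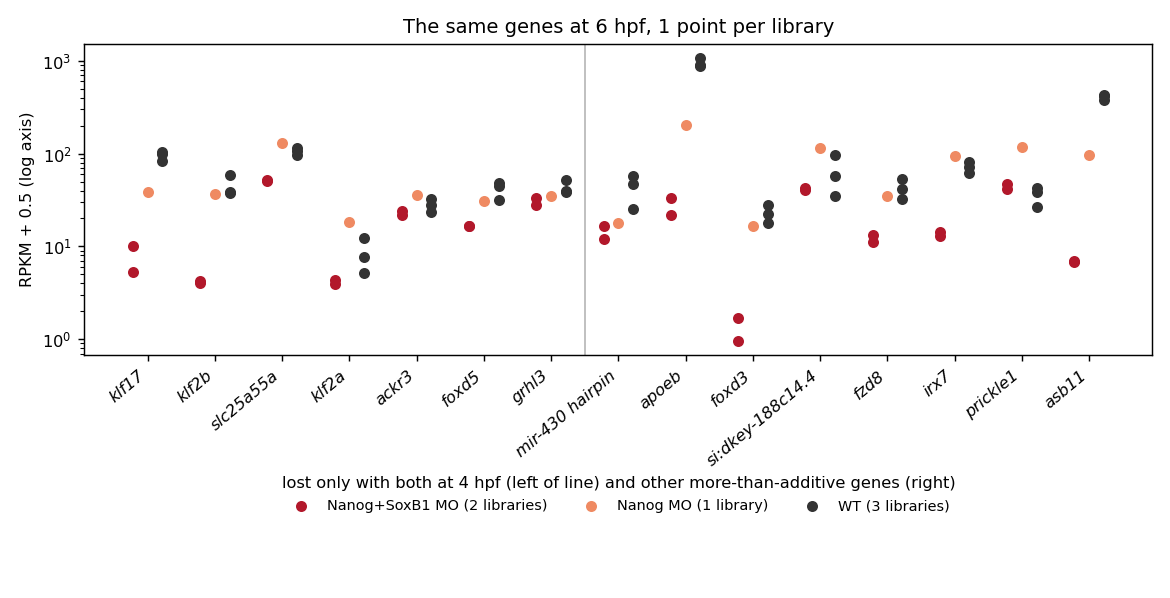
The same genes at 6 hpf as RPKM + 0.5 on a log axis, 1 point per library, for Nanog+SoxB1 MO (2 libraries), Nanog MO (1 library) and WT (3 libraries). Nanog+SoxB1 MO lies below every WT library for every gene drawn except ackr3, si:dkey-188c14.4 and prickle1. For prickle1 alone, 1 Nanog+SoxB1 MO library lies above every WT library.

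At 6 hpf, with replicates, much of the loss was still there. Of the 42 more-than-additive genes, 33 were lower in Nanog+SoxB1 MO than in WT and 1 higher. The shares were 14.2% lower and 38.6% higher of the 9428 genes that had at least 5 RPKM in WT at 4 hpf and were tested at 6 hpf. Loss that lasted was not particular to the class. Of the 193 tested genes lost in Nanog+SoxB1 MO at 4 hpf, the 42 included, 132 were lower than WT and 6 higher. The median of all genes tested at 6 hpf lay 0.29 above WT on the log2 scale. Against Nanog MO, 18 of the 42 were lower and 2 higher, against 0.902% lower and 0.35% higher of the same 9428 (0.984% and 0.636% of all 15245 genes tested). With no filter on low values, 8 of the 42 were lower. Of the 71 tested genes for which Nanog loss was enough at 4 hpf, 42 were lower than WT and 5 lower than Nanog MO; the 5 became 3 without WT replicate 1 or 2. Both classes share the Nanog+SoxB1 MO libraries of this comparison and have 5 genes in common. The genes with Nanog loss enough were chosen for a low Nanog MO level at 4 hpf. Some lost genes outside the more-than-additive class were also lower than Nanog MO at 6 hpf, so that step was not confined to it.

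Of the 8 genes lost only with both at 4 hpf, 6 were lower than WT at 6 hpf and 3 lower than Nanog MO (klf17, klf2b and slc25a55a). The 3 became 5 without WT replicate 3. The gene klf17 had 9.53 and 4.85 RPKM in Nanog+SoxB1 MO, 38.2 RPKM in Nanog MO and 102, 82.1 and 99.6 RPKM in WT (adjusted p = 2.92e-05 against WT and 0.0139 against Nanog MO). In klf2b the values were 3.77 and 3.52 RPKM in Nanog+SoxB1 MO, 36.4 RPKM in Nanog MO and 58.2, 38.5 and 37.3 RPKM in WT (adjusted p = 2.01e-05 and 0.00228). By contrast ackr3 had 21.3 and 23.7 RPKM in Nanog+SoxB1 MO, 35.6 RPKM in Nanog MO and 27.3, 22.9 and 32.1 RPKM in WT (adjusted p = 0.2204 against WT). The groups did not overlap for klf17 and klf2b and did so for ackr3. The gene asb11 was also lower than Nanog MO, at 6.42 and 6.34 RPKM in Nanog+SoxB1 MO, 97.1 RPKM in Nanog MO and 378, 417 and 430 RPKM in WT (adjusted p = 2.98e-05 against Nanog MO). Among the genes lost with each single loss, vgll4l had 3.37 and 4.18 RPKM in Nanog+SoxB1 MO, 94.4 RPKM in Nanog MO and 46.6, 52.6 and 74.4 RPKM in WT, so its Nanog MO value lay above all 3 WT libraries.

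Introns, which hold unspliced RNA, were read in the same 4 libraries. Intron interactions were shifted as a whole: over 2389 genes with at least 0.5 intron RPKM in WT the median was -0.63 on log2(RPKM + 0.1), and 27.9% lay at -1 or lower. Values are therefore read against that median. The 30 more-than-additive genes with introns had a median of -1.81, with 24 at -1 or lower, and the 62 with Nanog loss enough had a median of -0.52. In the Nanog class 57 of 62 were at least 4-fold below WT in Nanog MO introns and 60 in Nanog+SoxB1 MO introns. Over all 2389 genes, 222 were that low in Nanog MO introns and 336 in Nanog+SoxB1 MO introns. The introns of klf2b had 0.158 RPKM in Nanog+SoxB1 MO, 3.12 RPKM in Nanog MO, 18.5 RPKM in SoxB1 MO and 4.41 RPKM in WT, so the high SoxB1 MO value seen in its exons was seen there too. The introns of slc25a55a had 3.04 RPKM in Nanog+SoxB1 MO, 24.5 RPKM in Nanog MO, 37.6 RPKM in SoxB1 MO and 41.2 RPKM in WT. Of the 30, 28 had a negative intron interaction, and sox19a did not, at 0.04. Its introns were listed at 0 in both Nanog+SoxB1 MO and Nanog MO, against 6.31 RPKM in SoxB1 MO and 6.51 RPKM in WT.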

How the data were processed

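The authors deposited RPKM per gene for exons and introns and, for ribosome profiling, RPM per gene with read numbers. Per the labels' protocols, total RNA was depleted of rRNA and made into strand-specific libraries. Per the submitters' processing notes, CASAVA 1.8.2, Bowtie 0.12.9, TopHat2 2.0.7 and Zv9/danRer7 were used. No sequence was read from a genome here.

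From there, log2(RPKM + 0.5) was fitted with limma 3.58.1 (R 4.3.3; group means, trended empirical Bayes, Benjamini-Hochberg adjustment over all genes with at least 1 RPKM in 2 libraries) on 9 libraries in 6 groups, with 3 residual degrees of freedom. Adjusted p under 0.05 was the threshold. Introns used a pseudocount of 0.1. The fit was checked on simulated data, where every library had the fitted spread and the changed genes lay above the floor. Of interactions simulated at -2, 78% were called, and of those at -4, 100%, with 9 false calls among 15624 genes. The run changed 50 genes at each simulated size at once, and many true changes make the adjusted threshold easier to pass. These shares may therefore overstate what the fit can call in the real data, where klf2b at -4.32 did not pass. The 0 calls of the interaction cannot be read as absence of interactions of that size. That check cannot show whether the 4 hpf libraries vary like the 6 hpf ones, or how the fit behaves near the floor. Since 1 library stands for each 4 hpf condition and depth is unknown, no counting interval is given.

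Genes named were the top ones of each class by a fixed rule (effect size, or WT level), members of gene lists and those at the limits of a class. Symbols were matched for 72.9% of exon entries, paralogue letters aside. Members and lists were chosen with earlier results of these data known. Alternatives varied pseudocount, filter, centring, folds, libraries and the replicate block.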

Additional observations from a re-analysis of the deposited data

Results flagged for a closer look

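For 7 of 41 named genes the interaction was at least 1 in size in both backgrounds and opposite in sign, and 5 of the 7 were in the more-than-additive class. The difference between TUAB and MZpou5f1 embryos was tested with limma over all genes, and 0 of the 7 passed after adjustment, although 6 had an unadjusted p under 0.05. The interaction of slc25a55a was 1.64 in MZpou5f1 and -2.26 in TUAB embryos (adjusted p = 0.164 for the difference). For apoeb it was 1.51 in MZpou5f1 and -3.73 in TUAB (adjusted p = 0.180), and for aplnrb it was -2.38 in MZpou5f1 and 3.23 in TUAB (adjusted p = 0.180). For klf17 it was 2.56 in MZpou5f1 and -2.87 in TUAB (adjusted p = 0.372). For fzd8 it was 1.36 in MZpou5f1 and -2.56 in TUAB (adjusted p = 0.537), and for prickle1 it was 1.33 in MZpou5f1 and -2.45 in TUAB (adjusted p = 0.549). For isg15 it was -1.35 in MZpou5f1 and 1.79 in TUAB (unadjusted p = 0.272, adjusted p = 1). For klf17, fzd8 and prickle1 the MZpou5f1 expectation was at or under the floor, where a negative value was out of reach. For apoeb and slc25a55a it was -0.76 and -0.07 on the log2 scale, with the floor at -1. An MZpou5f1 interaction of -1 was therefore out of reach for these genes too. Every MZpou5f1 value here rests on the uninjected library labelled MZpou5f1, which held 28.0 RPKM of pou5f3.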

How the results depend on the processing

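The interaction gave 0 lower and 0 higher genes when any one 6 hpf replicate was left out. It gave 1 lower gene with a pseudocount of 0.1, 5 lower and 2 higher with a filter at 5 RPKM, and 232 lower and 225 higher with no filter, where 440 of the 457 were at 0 in all 5 replicated libraries. Lower genes in Nanog+SoxB1 MO against WT ranged from 163 to 212 without one replicate. In Nanog MO against WT they ranged from 83 to 106, and were 246 with no filter and 73 with all total RNA libraries. In SoxB1 MO against WT they ranged from 0 to 1, and were 174 with no filter, 1 with the replicate block and 0 with all libraries. Nanog+SoxB1 MO against Nanog MO ranged from 0 to 18 (47 with a pseudocount of 0.1, 246 with no filter, 0 with all libraries), and against SoxB1 MO from 96 to 128 (267 with no filter, 97 with all libraries).

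Genes lost only with both numbered 16 with a WT minimum of 2 RPKM, 19 with none and 5 with an 8-fold loss. More-than-additive genes numbered 67 with a pseudocount of 0.1 and 19 on the linear scale. SoxB1 loss was enough for 3 genes with a pseudocount of 0.1, 6 with a minimum of 2 RPKM, 9 with none and 0 at 8-fold. With a pseudocount of 1 it was enough for 1 gene, which was not cebpb. Genes lost with each single loss numbered 23, 8 and 26 with a minimum of 2, 10 and no RPKM, and 3 at 8-fold. Floor-limited genes numbered 20 with a pseudocount of 0.1, and 92, 16 and 6556 with a minimum of 2, 10 and no RPKM.

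At 6 hpf, genes lower than WT ranged from 5 to 7 (lost only with both), 31 to 34 (more than additive) and 41 to 44 (Nanog loss enough) without one replicate, and genes lower than Nanog MO from 2 to 5, 12 to 23 and 3 to 6. Below Nanog MO, 8 more-than-additive genes and 1 Nanog-loss gene were left with no filter, and the replicate block gave 5 genes lost only with both and 8 with Nanog loss enough. Centring the 6 hpf values, chosen after seeing the data, moved no count by over 1.5 times. Same-numbered 6 hpf replicates hardly deviated together (r = 0.083 and 0.055), so the numbers do not pair the libraries. The fgfr4 interaction of -0.04 turned to 0.24 with a pseudocount of 1. It was 1.04 in the fit of 8 libraries at 4 hpf, where TUAB and MZpou5f1 embryos share 1 interaction. The causes of the other changes were not tested. Of 416 single-gene interaction values under alternatives, 402 stayed on their side of the threshold with the same sign, 12 newly passed it and 2 (fgfr4) turned sign. No interaction passed in the main fit, so those 402 stayed short of the threshold. Of 288 values of Nanog+SoxB1 MO against Nanog MO, 225 stayed, 53 no longer passed and 10 newly passed. For SoxB1 MO against WT, 61 of 108 stayed and 47 no longer passed. The counts that stayed were 178 of 192 for Nanog MO against WT and 158 of 180 for Nanog+SoxB1 MO against SoxB1 MO. Depth, at 0.378 to 0.497 of WT in the injected libraries, limits values near 0.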
